A study of Homo sapiens with 4 samples.

Results

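The 10 Krüppel-like factor (KLF) genes described here, KLF2, KLF3, KLF4, KLF5, KLF6, KLF7, KLF9, KLF10, KLF11 and KLF16, were chosen by symbol, with no filter on expression, from 25133 rows with a gene symbol. RNA was sequenced from MDA-MB-231 cells, a human line established from breast cancer, that had been infected with lentivirus. In 2 libraries the virus carried a scrambled short hairpin (shSCR, the control), and in 2 it carried a hairpin against JARID2 (shJARID2), an accessory subunit of Polycomb repressive complex 2. All cells were thus infected, and the labels give the genotype as WT for shSCR and JARID2 knockdown for shJARID2. Nothing in the labels tells whether the 2 libraries of a group are from different cultures, and the p-values therefore reflect a spread that may be technical. Nor do the labels say whether more than a single hairpin against JARID2 was used, or how long after infection RNA was taken. In bulk RNA, fewer cells of a type and less RNA per cell cannot be told apart.

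KLF proteins are transcription factors that bind CACCC and GC-rich boxes in promoters through C2H2 zinc fingers at their C-terminal end. They share this mode of binding with the related SP factors and differ in what their N-terminal parts recruit. KLF3 belongs to a branch that represses through CtBP proteins. KLF2, KLF4, KLF5, KLF6 and KLF7 belong to a branch that mostly activates with histone acetyltransferases, and KLF9, KLF10, KLF11 and KLF16 to a branch that represses through SIN3. Several of them are induced quickly by serum, stress, shear flow or TGF-beta, and in breast epithelium KLF4 and KLF5 are known for their roles in differentiation and proliferation.

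The sequences before the start sites of KLF2, KLF6 and KLF16 are shown because KLF2 had the largest fall, KLF6 rose under both measures given below, and the direction of KLF16 depended on how GC content was handled. They are from RefSeq on GRCh38.p14, 5′ to 3′ on the strand of the gene, limited to bases upstream of both the RefSeq start and the GENCODE gene model. KLF11 also rose under both measures, but its window held no such bases. Capitals mark the GC box, GGGCGG or on the other strand CCGCCC, and, in KLF2 only, a match to the MEF2 consensus.
KLF2, chr19:16324576-16324816, + strand: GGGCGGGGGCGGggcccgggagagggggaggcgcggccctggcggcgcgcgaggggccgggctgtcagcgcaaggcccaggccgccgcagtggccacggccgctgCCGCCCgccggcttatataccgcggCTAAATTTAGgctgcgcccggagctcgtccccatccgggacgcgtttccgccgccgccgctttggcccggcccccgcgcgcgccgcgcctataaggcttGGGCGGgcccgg
KLF6, chr10:3785282-3785459, - strand: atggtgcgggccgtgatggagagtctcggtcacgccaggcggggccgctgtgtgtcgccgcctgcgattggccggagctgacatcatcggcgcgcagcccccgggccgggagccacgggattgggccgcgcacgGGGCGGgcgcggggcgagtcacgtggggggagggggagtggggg
KLF16, chr19:1863580-1863829, - strand: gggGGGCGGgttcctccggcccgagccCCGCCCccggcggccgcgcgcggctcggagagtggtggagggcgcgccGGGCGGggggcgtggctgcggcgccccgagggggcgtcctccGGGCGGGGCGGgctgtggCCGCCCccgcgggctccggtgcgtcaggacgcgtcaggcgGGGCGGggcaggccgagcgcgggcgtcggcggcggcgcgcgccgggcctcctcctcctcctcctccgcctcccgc

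Of the 10 genes, 8 were matched to a RefSeq start, and KLF3 and KLF10 were not. In the 250 bases before the start, GC content was 80.0% for KLF2, 86.4% for KLF16 and 72.4% for KLF6, and 96.7%, 99.8% and 84.6% of all 35116 RefSeq windows of this length had less. KLF9 lay at the other end, with 32.4%. The GC box was found before 5 of the 8 starts (KLF2, KLF4, KLF6, KLF11 and KLF16), against 42.6% of all windows. KLF16 had 7 matches, of which 2 shared 1 base, and KLF2 and KLF4 had 4 each. CACCC, which reads GGGTG on the other strand, was found only before KLF5 and KLF7, against 54.7% of windows. The MEF2 consensus was found before KLF2 alone, from -120 to -111, against 2.80% of windows. CCAAT, with ATTGG as its other strand, matched before KLF6 and KLF9, against 32.0% of windows. TGACG, with CGTCA as its other strand, matched before KLF4 and KLF16, against 21.2%. The CArG box, in 1.16% of windows, matched before none of the 8. Both strands were searched, and a match describes letters, not binding. A single RefSeq start was used per gene. For KLF4, KLF7 and KLF11 the whole window lay inside the GENCODE gene model, which thus has a start further upstream.

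**Figure D1:**
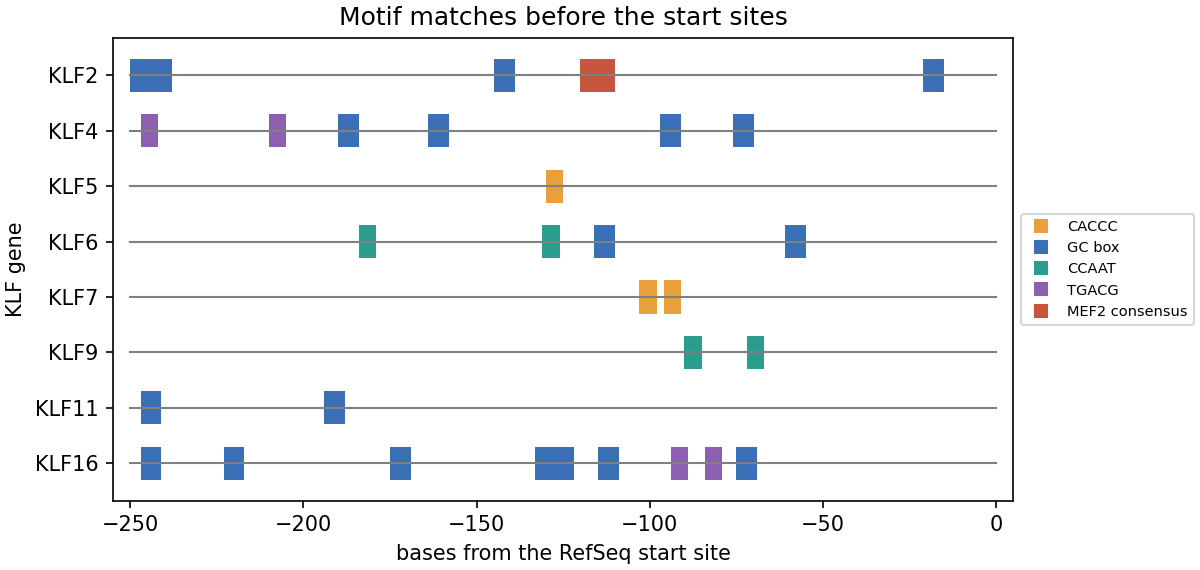
Positions of motif matches on either strand in the 250 bases before the RefSeq start of 8 KLF genes. The horizontal axis is the distance from the start in bases, each line is a gene, and coloured boxes are matches drawn to scale. KLF16 has 7 GC boxes, and the MEF2 consensus appears in KLF2 only.

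The knockdown was visible in the targeted transcript. JARID2 measured 10.8 and 10.8 FPKM (fragments per kilobase of exon, relative to all counted fragments) in shSCR and 3.88 and 3.91 in shJARID2. Its log2 fold change was -1.27 (adjusted p = 0.0014, limma). The steps between low FPKM values gave depths of about 12800000 to 16200000 counted reads per library. None of 7 blood cell markers found and none of 5 endothelial ones reached a mean of 1 FPKM. The hormone receptor genes ESR1 and PGR were at most 0.203 and 0.0802 FPKM, and this line is known to lack the receptors. Of 9 luminal and hormone receptor markers, 5 were tested, with 4 called lower and 1 higher (2 and 1 GC-corrected). Over all tested genes, 31.6% were called lower and 28.0% higher (21.5% and 22.8% GC-corrected), and the markers were not tested against other genes. ERBB2 went from 15.5 and 15.7 FPKM to 6.58 and 7.57, KRT8 from 13.8 and 15.0 to 6.04 and 6.78, and EPCAM from 1.36 and 1.35 to 4.90 and 3.78. KRT18 and FOXA1 were lower as measured (-0.77 and -0.41) and did not pass GC-corrected. Another gene shares 16.3% of the exon bases of KRT18. Low values need caution in these files. VIM, a mesenchymal marker of the line, was at 2.10 to 4.20 FPKM, and COX5B, a respiratory chain gene, at 0 to 0.107. VIM was the lowest of 6 markers of the line. AXL was at 167 to 417 FPKM, CAV1 at 99.0 to 205 and CD44 at 68.9 to 79.7. ANXA1 was at 33.6 to 57.7 and PLAU at 30.1 to 59.0, though 31.05% of the exon bases of PLAU are shared with another gene. Of the 6, 3 were called higher and 3 lower (2 and 2 GC-corrected), beside the same shares over all tested genes.

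By level, the family was led by KLF6 in every library. Levels, ranks, sums and shares are given here as measured, without the GC correction described below. In shSCR the order of the means was KLF6, KLF16, KLF5, KLF11, KLF4, KLF3, KLF2, KLF10, KLF9 and KLF7, and of these neighbours only KLF4 and KLF3 overlapped between libraries. In shJARID2 the order was KLF6, KLF5, KLF11, KLF16, KLF3, KLF4, KLF10, KLF2, KLF9 and KLF7, with no overlap, although KLF11 and KLF16 came close (lowest 14.8 against highest 14.5 FPKM). KLF16 thus went from the second to the fourth place, and KLF2 from the seventh to the eighth. The fall of KLF16 in rank did not hold after GC correction. Corrected, KLF16 was below KLF5 in shSCR (15.2 and 14.1 against 18.3 and 19.1 FPKM). In shJARID2 it was above KLF5 (20.8 and 22.0 against 19.8 and 19.1). The 10 genes summed to 111 and 114 FPKM under shSCR and to 96.8 and 96.5 under shJARID2. KLF6 held 22.2% and 22.3% of the FPKM of all 17 KLF genes found in shSCR, and 30.7% and 29.1% in shJARID2. KLF2 held 5.41% and 6.07% in shSCR and 1.03% and 0.793% in shJARID2. The 4 genes of the SIN3-binding branch summed to 41.7 and 42.6 FPKM under shSCR and to 29.3 and 32.5 under shJARID2. KLF16 made up most of this gap, so the gap too depends on how GC content is handled. The 5 genes of the activator branch were closer, at 60.8 and 62.7 FPKM under shSCR and 59.9 and 56.6 under shJARID2.

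**Figure D2:**
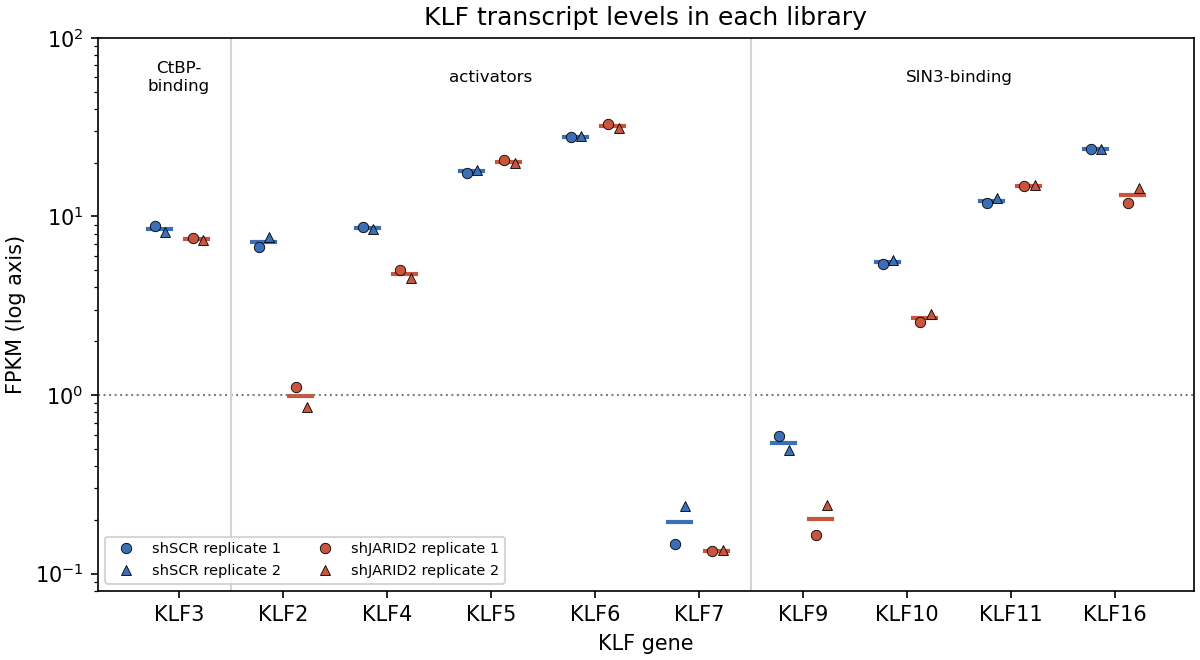
FPKM of the 10 KLF genes in each of the 4 libraries on a log axis, ordered by branch, with symbols for libraries and short bars for group means. The dotted line marks the mean of 1 FPKM needed for testing, which KLF7 and KLF9 did not reach. For KLF2 the shSCR libraries lie at 6.75 and 7.65 and the shJARID2 libraries at 1.11 and 0.851.

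Which KLF transcripts changed on JARID2 depletion was asked by setting shJARID2 beside shSCR. KLF2 fell most, and KLF10, KLF16 and KLF4 were 51.6%, 44.8% and 44.7% lower by their means. KLF5, KLF6 and KLF11 rose slightly, by 13.2%, 15.2% and 21.5%, and KLF3 did not pass the test. Each change is the difference of mean log2(FPKM + 1), shJARID2 minus shSCR, a scale that shrinks the change of genes with low levels. Calls needed an adjusted p below 0.05 (limma, Benjamini-Hochberg over 12455 genes). Of the 8 KLF genes that reached a mean of 1 FPKM, 3 were called higher and 4 lower, with a median log2 fold change of -0.46. Over all genes tested, 28.0% were called higher and 31.6% lower, with a median of -0.018. All 10 KLF genes had groups that did not overlap, 3 higher and 7 lower. Of all rows with a symbol and a value above 0, 60.2% had such separate groups, 29.4% higher and 30.8% lower. The 4 falls passed when any 1 library was left out, while the number of rises went to 0 without shSCR replicate 1, shSCR replicate 2 or shJARID2 replicate 1 and to 1 without shJARID2 replicate 2 (limma). At an unadjusted p below 0.05 these 4 fits had 1, 1, 2 and 3 rises, and limma-voom on recovered reads with all libraries had 3 at the adjusted threshold.

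Fold changes in these files followed the GC content of transcripts, which touches KLF genes unequally. Across 12111 tested genes with a GC value, Spearman's rho of log2 fold change with GC content was -0.67, as a description over genes that share the 4 libraries. Transcripts of KLF16 had a GC content of 72.7% and those of KLF2 of 66.8%, above 99.9% and 98.8% of tested genes. KLF4, KLF6 and KLF3 were at 54.8%, 54.6% and 51.1%, and KLF11, KLF5 and KLF10 at 49.9%, 47.0% and 46.2%, against a median of 48.2% over tested genes. Each change is therefore also given after a smooth trend on GC content was subtracted within each library, and called GC-corrected. In that form 3 of the 8 KLF genes were called higher (KLF6, KLF11 and KLF16) and 3 lower (KLF2, KLF4 and KLF10). Of the calls as measured, 2 of the 3 rises and 3 of the 4 falls were kept, the call of KLF5 ended and that of KLF16 turned. Over all genes, 22.8% were called higher and 21.5% lower after correction. The median of the 8 KLF genes was then -0.0068, against 0.00068 over all genes.

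**Figure D3:**
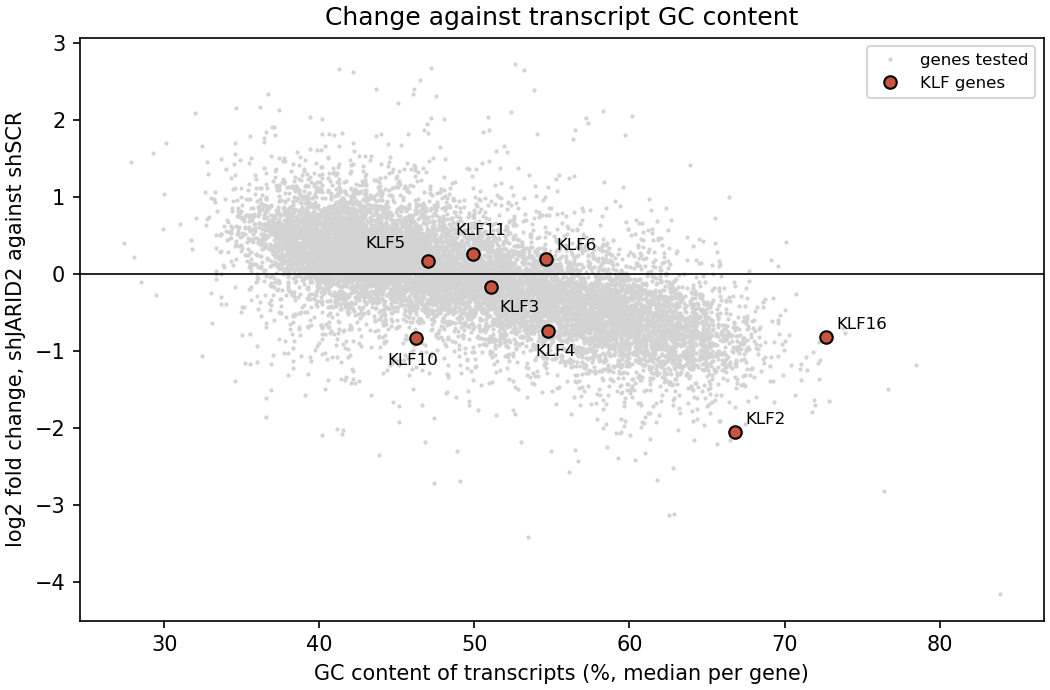
Log2 fold change of shJARID2 against shSCR (vertical) against the median GC content of a gene's transcripts in percent (horizontal). Grey dots are tested genes and red circles the 8 tested KLF genes. KLF2 and KLF16 lie at the GC-rich end, at 66.8% and 72.7%, and KLF10 lies at 46.2%, with a log2 fold change of -0.83.

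In the CtBP-binding branch, KLF3, a repressor first studied in blood and fat cells, was close to level. The gene lies on chromosome 4 from 38664196 to 38701042 (+ strand, GRCh38, GENCODE release 29, as for the genes below). It measured 8.81 and 8.22 FPKM under shSCR and 7.52 and 7.33 under shJARID2, from 591 to 860 reads per library. Both shJARID2 libraries were below both shSCR libraries, but the gap was too small to pass (log2 fold change -0.18, SE 0.064, adjusted p = 0.074, limma). GC-corrected, the value was -0.068.

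Among the activators, KLF2, known for keeping endothelial cells and T cells quiescent, fell most. The gene lies on chromosome 19 from 16324817 to 16327874 (+ strand), and its promoter is the GC-rich sequence with the MEF2 match shown above. KLF2 measured 6.75 and 7.65 FPKM under shSCR and 1.11 and 0.851 under shJARID2, which were 211 and 250 reads against 29 and 22. The shJARID2 libraries lay far below the shSCR libraries, with a ratio of means of 0.136. As measured the fall was -2.05 on the log2 scale (SE 0.12, adjusted p = 0.0014, limma), and it was -1.15 GC-corrected (SE 0.13, adjusted p = 0.0042). After correction the levels were 4.84 and 5.16 FPKM under shSCR and 1.99 and 1.44 under shJARID2, still without overlap. The correction was fitted on GC content alone, so genes with the same GC content got the same shift at any level. The log2(FPKM + 1) scale shrinks changes at low levels such as these, and limma-voom on recovered reads gave -2.84 without correction. The corrected size is therefore uncertain. The 5 endothelial markers found summed to 1.60 and 1.76 FPKM in shSCR and to between 0.849 and 0.933 in shJARID2, mostly from PECAM1 and KDR. PECAM1 (0.599 and 0.685 against 0.179 and 0.171 FPKM) and KDR (0.964 and 1.03 against 0.541 and 0.607) were lower in shJARID2, like KLF2. In reads, PECAM1 had 72 and 86 against 18 and 17, and KDR 98 and 110 against 46 and 51. The other 3 were slightly higher there in FPKM, on too few reads to give a direction. CDH5 was at 0 and 0.0103 FPKM against 0.0517 and 0.0392 (0 and 1 reads against 4 and 3). VWF was at 0.00621 and 0.00595 against 0.0446 and 0.0827 (1 and 1 reads against 6 and 11). TEK was at 0.0269 and 0.0257 against 0.0321 and 0.0325, with 2 reads in every library. What any of these 5 markers has to do with the fall of KLF2 was not tested. GENCODE names 4 pseudogenes after KLF2, and how the authors counted reads with several matches is not given in the sources used here.

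KLF4, a reprogramming factor that also promotes epithelial differentiation, fell as well. It lies on chromosome 9 from 107484850 to 107490480 (- strand). It measured 8.71 and 8.48 FPKM under shSCR and 4.98 and 4.53 under shJARID2, from 212 to 502 reads. The groups were well apart relative to the gap within each (log2 fold change -0.74, SE 0.072, adjusted p = 0.0023, limma). GC-corrected, the fall was smaller (-0.42, adjusted p = 0.018), with levels of 7.78 and 7.40 FPKM against 5.82 and 5.04. The corrected call ended without shSCR replicate 1 (-0.39, adjusted p = 0.095) and without shSCR replicate 2 (-0.45, adjusted p = 0.078).

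KLF5 and KLF6, the activators with the highest levels, were slightly higher in shJARID2. KLF5, which promotes proliferation of epithelial cells, lies on chromosome 13 from 73054976 to 73077542 (+ strand) and measured 17.6 and 18.3 FPKM under shSCR and 20.6 and 19.9 under shJARID2. Its log2 fold change of 0.17 (SE 0.050, adjusted p = 0.041, limma) lay just under the threshold. The call was lost when any 1 library was left out, with adjusted p from 0.068 to 0.19, and after GC correction (0.055, adjusted p = 0.37), where the levels were 18.3 and 19.1 against 19.8 and 19.1 FPKM. KLF6, a stress-responsive factor with reported tumour suppressor activity, lies on chromosome 10 from 3775996 to 3785281 (- strand) and is the gene whose GC-rich promoter is shown above. It measured 27.7 and 28.1 FPKM under shSCR and 33.1 and 31.2 under shJARID2, with 2453 to 2793 reads in every library. The shJARID2 libraries were both higher, by 0.20 on the log2 scale (SE 0.049, adjusted p = 0.026, limma). GC-corrected, the rise was larger (0.51, adjusted p = 0.0044), at 25.0 and 24.9 against 37.7 and 34.2 FPKM. As measured, the call of KLF6 ended without shSCR replicate 1, shSCR replicate 2 or shJARID2 replicate 1 (adjusted p of 0.12, 0.10 and 0.082).

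KLF7, known from neuron and adipocyte development, was the lowest of the 10 and was not tested. It lies on chromosome 2 from 207074140 to 207167270 (- strand) and measured 0.146 and 0.240 FPKM under shSCR and 0.133 and 0.135 under shJARID2. These were 21 and 36 reads against 16 and 16, so the spread within shSCR exceeded the gap between the groups. With no filter on low values it did not pass (log2 fold change -0.072, adjusted p = 0.44, limma).

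**Figure D4:**
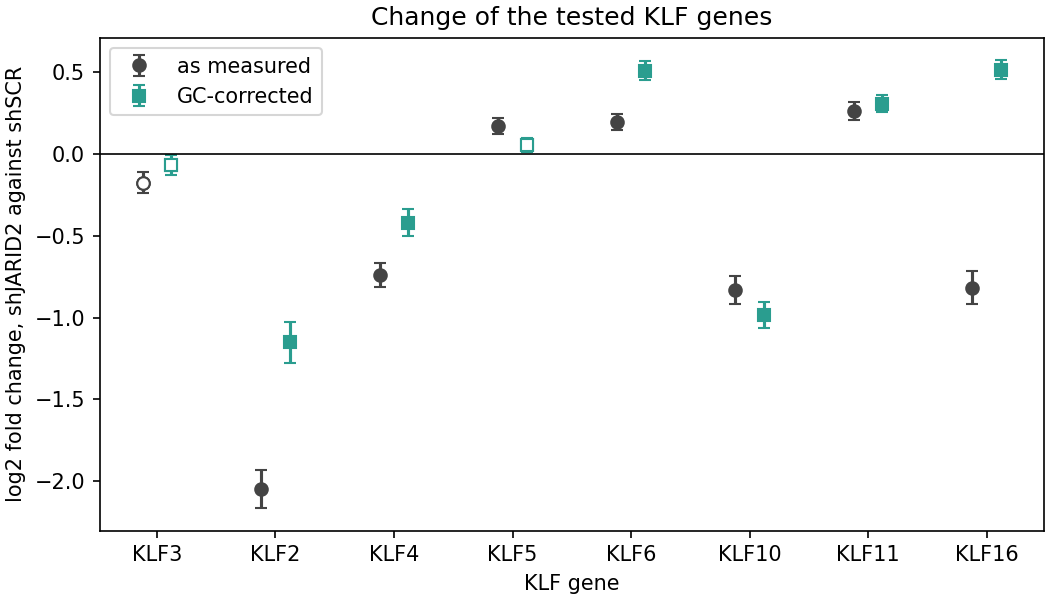
Log2 fold change of shJARID2 against shSCR for the 8 tested KLF genes, as measured (circles) and GC-corrected (squares), with bars of 1 standard error from limma. Open symbols did not pass an adjusted p of 0.05. KLF2, KLF4 and KLF10 are lower under both measures, while KLF16 goes from -0.82 to 0.52.

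In the SIN3-binding branch the genes moved in different directions. KLF10 and KLF11 are both known as TGF-beta-inducible early genes, and they went opposite ways. KLF10 lies on chromosome 8 from 102648780 to 102655900 (- strand) and measured 5.40 and 5.71 FPKM under shSCR and 2.55 and 2.83 under shJARID2, which were 335 and 370 reads against 132 and 145. Both shJARID2 libraries were well below the shSCR libraries, with a ratio of means of 0.484 (log2 fold change -0.83, SE 0.085, adjusted p = 0.0025, limma). The fall of KLF10 was slightly larger after GC correction (-0.98, SE 0.082, adjusted p = 0.0026), unlike those of KLF2 and KLF4. It passed under all 19 alternatives, from -1.04 to -0.78. KLF11 lies on chromosome 2 from 10042849 to 10054836 (+ strand) and measured 11.9 and 12.7 FPKM under shSCR and 14.8 and 15.0 under shJARID2. The groups did not overlap, and KLF11 rose by 0.26 on the log2 scale (SE 0.056, adjusted p = 0.017, limma), or 0.31 GC-corrected (adjusted p = 0.011). As measured, the call ended when any 1 library was left out (adjusted p from 0.051 to 0.091), with values from 0.22 to 0.31. Of the exon bases of KLF11, 9.07% are also exonic in another gene.

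KLF16, described as a regulator of dopamine receptor promoters, changed direction with the treatment of GC content. It lies on chromosome 19 from 1852399 to 1863568 (- strand), behind the promoter with 7 GC boxes shown above. It measured 23.9 and 23.8 FPKM under shSCR and 11.8 and 14.5 under shJARID2, or 1093 and 1137 reads against 452 and 548. As measured, both shJARID2 libraries were lower (log2 fold change -0.82, SE 0.10, adjusted p = 0.0039, limma). GC-corrected, both were higher, at 20.8 and 22.0 FPKM against 15.2 and 14.1 (0.52, SE 0.059, adjusted p = 0.0044). Among all genes with both values, 3904 were called lower as measured and 221 of these were called higher after correction. Since 99.9% of tested genes had a lower GC content than KLF16, few genes lie near it on that trend. Of its exon bases, 16.3% are also exonic in another gene, and whether the counting used strand is not given in the sources used here.

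KLF9, which responds to glucocorticoid and thyroid hormone, was below the filter. It lies on chromosome 9 from 70384597 to 70414624 (- strand) and measured 0.586 and 0.489 FPKM under shSCR and 0.164 and 0.241 under shJARID2. These were 47 and 41 reads against 11 and 16, and the groups did not overlap. With no filter on low values KLF9 was called lower (log2 fold change -0.35, adjusted p = 0.049, limma), close to the threshold.

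By profile over the 4 libraries, measured as the Euclidean distance of centred log2(FPKM + 1) values among 7325 genes with a mean of at least 5 FPKM, KLF2 was nearest to SF3A2, RPS9 and BAG3 (distances of 0.039, 0.20 and 0.27). KLF11, the largest rise called among the KLF genes as measured (KLF16 and KLF6 rose more GC-corrected), was nearest to MFSD5, KRT7 and COX11 (0.0081, 0.024 and 0.026). With 4 libraries in 2 groups, such likeness is little more than a similar size of change.

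The other KLF genes and the SP genes are relatives with similar zinc fingers. Their counts, and those of the linked lists that follow, stand beside 28.0% higher and 31.6% lower over all tested genes (22.8% and 21.5% GC-corrected), and none of the lists was tested against other genes. Of 7 other KLF genes found, 2 were tested. KLF15, a metabolic regulator, went from 2.27 and 2.45 FPKM to 0.786 and 0.823 and fell by 0.90 on the log2 scale (adjusted p = 0.0040, limma), a call that ended after GC correction (-0.30, adjusted p = 0.080). KLF12, a CtBP-binding repressor like KLF3, measured 9.38 and 8.25 FPKM under shSCR and 9.31 and 8.78 under shJARID2 and did not pass as measured (0.036), but was called lower GC-corrected (-0.26, adjusted p = 0.033). Below the filter, KLF13 of the SIN3-binding branch was at 0.466 and 0.401 FPKM (68 and 61 reads) in shSCR and 0.0575 and 0.0747 (7 and 9 reads) in shJARID2. KLF17 was at 0.701 and 0.770 FPKM against 0.419 and 0.474. KLF8, KLF14 and KLF18 had overlapping groups, all at most 0.580 FPKM.

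Of 7 SP genes found, 5 were tested, with 1 higher and 2 lower (0 and 2 after GC correction by limma, with 0 higher at an unadjusted p below 0.05). SP1, the most abundant at 38.2 to 40.8 FPKM, overlapped between groups and did not pass (0.023). SP3 rose from 14.0 and 12.6 FPKM to 15.9 and 17.1 (0.29, adjusted p = 0.029, limma), which ended after correction (-0.052). SP2 went from 15.6 and 17.9 FPKM to 8.54 and 9.54 (-0.82, GC-corrected -0.38), and SP5, a Wnt target, from 5.26 and 6.06 to 1.12 and 1.36 (-1.57, GC-corrected -0.42). Both were called lower under both measures. SP4 did not pass (0.40, adjusted p = 0.056, and 0.0024 corrected). SP6 was at most 0.301 FPKM and SP7 at most 0.0724.

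Of 14 tested cofactors through which KLF proteins act, 5 were higher and 6 lower (7 and 4 GC-corrected), with a median of -0.11 (0.17 corrected). As measured, these numbers are near the shares over all genes. SAP30, a SIN3 complex subunit, rose from 12.3 ± 1.70 to 23.0 ± 0.352 FPKM (SD, n = 2; 0.86, GC-corrected 1.18), and the deacetylase gene HDAC2 rose too (0.73, GC-corrected 0.42). SIN3A, the scaffold bound by KLF9, KLF10, KLF11 and KLF16, fell from 12.9 ± 0.141 to 8.05 ± 0.673 FPKM (-0.62, GC-corrected -0.31). CTBP1, the partner of KLF3, was lower as measured (-0.50) and higher after correction (0.20, adjusted p = 0.045).

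The kinase route through ERK5 and MEF2 factors is known to induce KLF2 and KLF4. Of its 6 tested genes, 2 were higher and 4 lower (1 and 3 GC-corrected), with a median of -0.54 (-0.22 corrected). MEF2D fell from 15.1 ± 1.03 to 6.44 ± 1.26 FPKM (-1.12, GC-corrected -0.47), and MAP3K3, an upstream kinase, fell by 0.77 on the log2 scale (-0.38 corrected). MAPK7, which encodes ERK5, was called lower as measured (-0.70) but not after correction (-0.051). MAP3K2 rose under both measures (0.58 and 0.27). The TGF-beta and SMAD route, which induces KLF10 and KLF11, had 5 of 10 genes higher and 2 lower (3 and 3 GC-corrected), with a median of 0.22 (0.087 corrected). The ligand gene TGFB1 fell from 39.4 ± 5.42 to 13.3 ± 1.35 FPKM (-1.50, GC-corrected -0.99). SMAD4, the shared mediator, rose (0.60, GC-corrected 0.28), as did the inhibitory SMAD7 (0.38, GC-corrected 0.81). SKI, a corepressor of SMAD proteins, lost its call with correction (-0.70 to 0.012).

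Enzymes that add or remove ubiquitin on KLF proteins gave 4 higher and 3 lower of 11 tested, the same numbers after GC correction, with a median of 0.14 (-0.087 corrected). WWP1, a ligase of KLF5, rose from 15.3 ± 0.112 to 23.2 ± 0.645 FPKM (0.57, GC-corrected 0.17), while BAP1, a deubiquitinase of KLF5, fell from 21.8 ± 0.0342 to 11.7 ± 0.496 (-0.85, GC-corrected -0.33). SKP1 (0.66, GC-corrected 0.36) and SIAH1 (0.63, GC-corrected 0.43) rose, though 31.2% of the exon bases of SIAH1 are shared with another gene.

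Of 10 tested genes that were reported as KLF targets, 1 was higher and 7 lower (2 and 6 GC-corrected), beside 28.0% and 31.6% of all genes (22.8% and 21.5%). Their median was -0.84 (-0.39 corrected), against -0.018 (0.00068 corrected) over all genes. KRT19, a keratin gene, went from 7.68 ± 0.241 to 1.21 ± 0.249 FPKM (-1.98, GC-corrected -1.39) and PTGES, a prostaglandin synthase gene linked to KLF5, fell by 1.39 on the log2 scale (-0.97 corrected). CDKN1A, the cell cycle inhibitor activated by KLF4 and KLF6, went from 3.06 ± 0.0229 to 0.778 ± 0.276 FPKM (-1.20, GC-corrected -0.63). CCND1, activated by KLF5 and repressed by KLF4 and KLF6 in other settings, fell from 187 ± 0.536 to 82.6 ± 3.22 FPKM (-1.17, GC-corrected -0.40). PLAU was the 1 called higher as measured (0.82, GC-corrected 1.095), and PDGFA was called higher only after correction (-0.16, GC-corrected 0.56). The list mixes genes that KLF proteins activate and repress, and CCND1, KRT19 and CDKN1A have many other regulators.

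Immediate early genes, a class that includes KLF2, KLF4, KLF6 and KLF10, had the median that the correction moved furthest among these lists. Of 13 tested, 0 were higher and 11 lower as measured (limma), with a median of -0.55. At an unadjusted p below 0.05, 1 was higher, and limma-voom called 1 higher. GC-corrected, 5 were higher and 5 lower, with a median of 0.26. EGR1, a zinc finger factor, went from 6.67 ± 1.67 to 1.76 ± 0.784 FPKM (-1.49, GC-corrected -1.14), and IER5 from 2.31 ± 0.220 to 0.380 ± 0.0625 (-1.26, GC-corrected -1.22). ZFP36, which destabilises mRNAs (-1.10, GC-corrected -0.37), and SRF, the factor that binds the CArG box (-0.82, GC-corrected -0.17), were also lower under both measures.

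**Figure D5:**
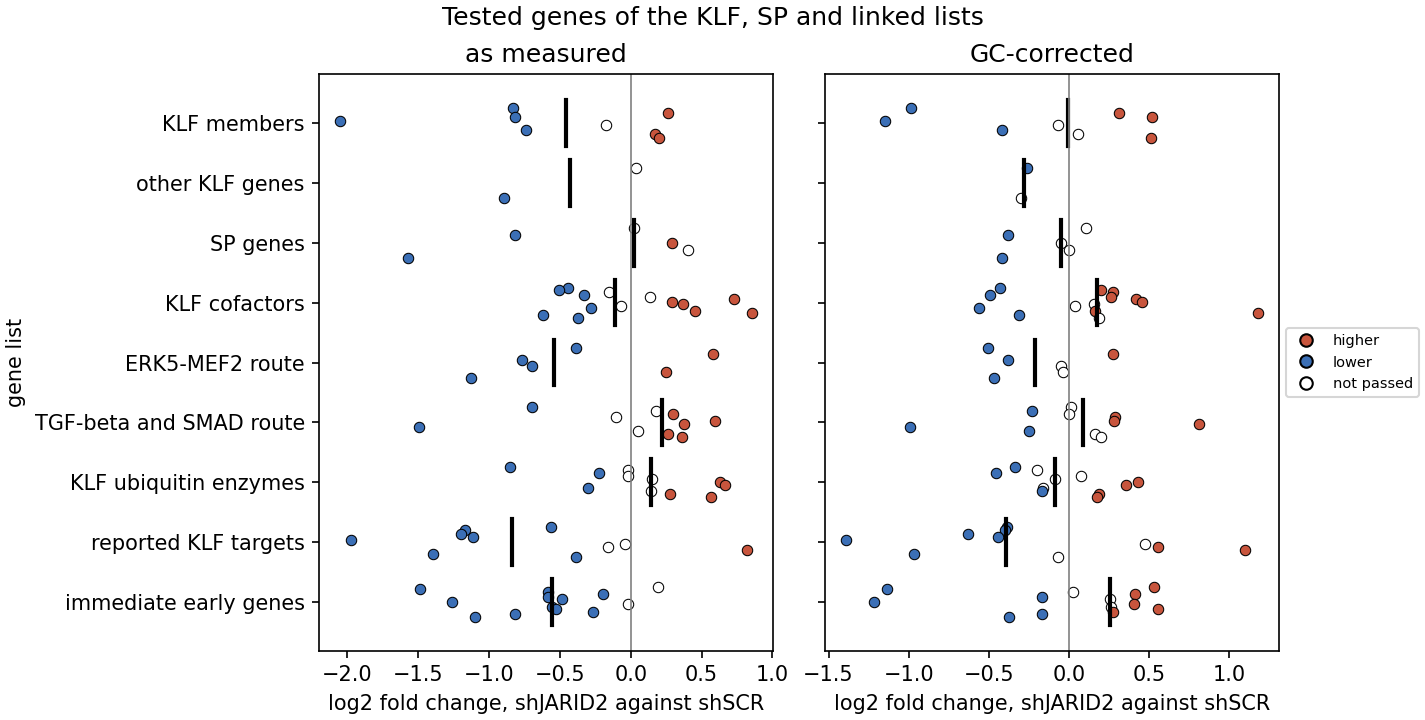
Log2 fold change of shJARID2 against shSCR for each tested gene of 9 lists, as measured (left) and GC-corrected (right). Points are genes, coloured by call (red higher, blue lower, white not passed), and black bars are list medians. The median of the immediate early genes goes from -0.55 to 0.26, and that of the reported KLF targets from -0.84 to -0.39.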

How the data were processed

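RNA from 2 shSCR and 2 shJARID2 libraries of MDA-MB-231 cells was sequenced. Per the file headers, the authors deposited FPKM, in 85553 rows per library, of which 60420 have no symbol and were left out. The submitters' processing notes name Trimmomatic, HISAT2, SAMtools and featureCounts. Versions, build, annotation and strandedness were not given in the sources used here. Labels gave the groups and replicate numbers. The KLF genes, the lists and the GC correction were chosen with earlier results of these data known.

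Genes with a 4-library mean of 1 FPKM or more were tested as log2(FPKM + 1). The test was that of limma 3.58.1 (R 4.3.3), with an intensity-dependent prior variance, 2.36 prior and 2 residual degrees of freedom, and Benjamini-Hochberg adjustment. Exon length, coordinates, overlap with exons of other genes and transcript GC content came from GENCODE release 29 on GRCh38, matched for 24332 rows. FPKM times length fell within 0.05 of a whole number for 95.8% to 96.3% of values up to 20 reads, which gave depths and reads. For the GC correction, each library's deviations from the gene means were fitted against GC content by loess (span 0.3, degree 2), and the fitted values were taken off. Replicates differed by more than sampling noise (chi-square per degree of freedom of 2.84 in shSCR and 3.28 in shJARID2).

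The fit was tested on simulated reads for this comparison, with 200 changed genes. Among 12058 genes without a GC trend it recovered 81.8% of 2-fold changes and 91.3% of 4-fold changes and called 0.143% of unchanged genes. With a linear GC trend added, among 11988 genes, 46.5% of unchanged genes were called if the trend was left in and 0.110% once it was corrected, when 82.8% and 93.5% of the changes were recovered. The 200 genes were drawn without regard to GC content, and far more genes were called in the real data. The simulation therefore cannot tell whether the correction also takes off real change that follows GC content.

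Named genes were JARID2, the 10 KLF genes, the other KLF and SP genes, up to 4 called genes with the largest change in each further list, and the 3 nearest profiles to the largest called rise and fall. Other genes named were chosen after their values were seen, apart from marker genes.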

Additional observations from a re-analysis of the deposited data

How the results depend on the processing

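Alternatives changed the scaling, the filter or the pseudocount, used limma-voom on recovered reads, a replicate block or GC correction, or left out 1 library. GC correction with span 0.75 and GC correction with each library left out were added after seeing the data. KLF2 and KLF10 kept direction and call under all 19 alternatives, and KLF3 passed under none. KLF4 lost its call under 2, KLF6 under 3, KLF11 under 5 and KLF5 under 13. KLF16 turned under the 7 settings with GC correction, to 0.52 with it and with the replicate block beside it, 0.41 with span 0.75, and 0.58, 0.47, 0.53 and 0.45 without shSCR replicate 1, shSCR replicate 2, shJARID2 replicate 1 and shJARID2 replicate 2. KLF2 ranged from -2.84 to -1.01. For genes called lower (3941), GC correction gave 2601, span 0.75 gave 2624 and the replicate block with GC correction 2333. With 1 library left out, genes called higher (3493) went from 2213 to 3076, genes called lower from 2475 to 3844 and KLF genes called higher (3) from 0 to 1, while 4 KLF genes were lower each time. With GC correction and without the same 4 libraries in that order, 1591, 1353, 2106 and 2375 genes were higher, 1262, 1105, 2050 and 2286 were lower, and 2, 2, 3 and 3 KLF genes were lower. The cause was not tested beyond the loss of 1 library. JARID2 stayed called, from -1.45 to -1.14. Same-numbered libraries did not deviate together (correlation of 0.029), so the numbers were not taken as pairs. With the replicate block 3380 genes were higher and 3831 lower, with 2 and 4 KLF genes among them, since KLF5 passed no longer (adjusted p = 0.059, limma). Depth limits KLF7 and KLF9, with at most 47 reads in any library.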

Other observations

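The factors that act with KLF4 in reprogramming were mostly not detected at a level that allowed testing. Of 10 genes in that list, only KLF4 and MYC reached a mean of 1 FPKM. MYC was called lower as measured (log2 fold change -0.26) and higher after GC correction (0.27, adjusted p = 0.0055, limma). POU5F1 was at 0.624 and 0.704 FPKM under shSCR and 0.560 and 0.431 under shJARID2, without overlap, and SOX2 was at most 0.154 FPKM.

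Of 16 reported KLF targets found 10 were tested, and of 18 immediate early genes found 13 were tested. Among the rest, below the filter, 1 gene was higher and 4 were lower with separate groups, singled out after their values were seen. Separate groups were common, at 60.2% of all rows with a symbol and a value above 0 (29.4% higher and 30.8% lower). S1PR1, a sphingosine phosphate receptor gene activated by KLF2 in T cells, was at 0.273 and 0.342 FPKM (22 and 29 reads) in shSCR and 0.629 and 0.916 (43 and 61 reads) in shJARID2. ENG, the endoglin gene reported as a KLF6 target, was at 0.804 and 0.816 FPKM (49 and 52 reads) in shSCR and 0.0981 and 0.179 (5 and 9 reads) in shJARID2. NR4A1, an immediate early nuclear receptor gene, was at 0.823 and 0.796 FPKM against 0.318 and 0.353. The AP-1 gene FOSB was at 0.453 and 0.745 FPKM against 0.250 and 0.408, and the stress factor gene ATF3 at 0.240 and 0.229 against 0.134 and 0.116.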
